A study of Mus musculus with 16 samples.

Results

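The 6 Irx homeobox genes of the mouse, out of 22232 protein-coding gene names in the GENCODE M1 annotation of mm9, were followed through 10 ChIP-seq peak lists. They were chosen by family name and lie in 2 clusters of 3 genes. Irx1, Irx2 and Irx4 span 1310 kb of chromosome 13 (72095680 to 73407068), with 665 kb between Irx1 and Irx2 and 626 kb between Irx2 and Irx4. Irx3, Irx5 and Irx6 span 882 kb of chromosome 8 (94322428 to 95204855), with 556 kb and then 313 kb between neighbours. For each gene the peaks centred within 2500 bp of a protein-coding transcript start (the promoter window) were counted, and for each cluster all peaks from the first to the last base of its genes.

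Iroquois (Irx) genes encode transcription factors of the TALE homeodomain class. They pattern the neural plate and later the heart, limb and retina, and sharp borders of their expression mark territories in the neural tube. Genes of this kind are classic targets of the Polycomb system in stem cells, in which Polycomb repressive complex 1 (PRC1) places ubiquitin on a lysine of histone H2A (H2AK119ub1), PRC2 methylates a lysine of histone H3 (H3K27me3), and PCGF5 is a subunit of a variant PRC1.

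The lists came from 4 cell populations, each represented by 1 library per mark. Wild type ES were undifferentiated mouse embryonic stem cells of the 46C line, which carries a GFP reporter in Sox1, and PCGF5-depleted ES were cells of that line whose label gives the genotype as shPCGF5, a short hairpin RNA against Pcgf5. NPC of either genotype were taken at day 6 of neural differentiation. H2AK119ub1 and H3K27me3 gave 8 lists, and Flag-PCGF5 gave 2 more from ES and NPC whose own Pcgf5 gene carried a Flag tag. The labels call the tagged cells wild type. A stable hairpin line can retain some PCGF5, and the lists hold no measure of it.

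There was no replicate of any library, so every difference below compares 2 libraries, carries no error and was not tested. The files give no read totals, and sequencing depth is therefore unknown. The histone lists held 3845 to 14759 peaks covering 1.12 to 9.67 Mb of the genome, and Flag-PCGF5 held 653 peaks in ES and 12013 in NPC. The shortest histone list was H2AK119ub1 in PCGF5-depleted NPC, at 1.12 Mb against 2.33 Mb in wild type NPC. H3K27me3 covered 8.18 Mb in PCGF5-depleted NPC against 9.67 Mb in wild type NPC, although in more peaks (14759 against 11371). Depth, background and mark cannot be told apart in the length of a list, and a region without a peak may still carry the mark. The promoters of Pou5f1, Nanog and Klf4, which encode pluripotency factors, had no peak of either mark in the 4 histone lists of ES. Klf4 had one in the wild type NPC list of H2AK119ub1 and in both H3K27me3 lists of NPC. Of the neural markers, Pax6 had a peak in all 8 histone lists and Nes, which encodes nestin, in 6. Peaks of repressive marks do not report expression, so these lists do not test the labelled cell types.

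The start sites of the family lie in CpG-rich sequence, with Irx6 as the member nearest the genome's middle. In the 1001 bases centred on the first annotated start, the ratio of observed to expected CpG was 0.898 at Irx1, 0.904 at Irx2, 0.817 at Irx4, 0.88 at Irx3, 0.854 at Irx5 and 0.618 at Irx6, beside a median of 0.555 over 22229 protein-coding starts. Irx6 was at percentile 55.6 of those starts and the other members between 81.4 and 91.7. The GC share ran from 64.5% at Irx6 to 73.8% at Irx2, beside a median of 54.8%. The upstream sequences of 3 members are shown, each for a result given below. They are the 250 bases that end just before the start, read 5′ to 3′ on the gene's strand in mm9, with every CpG in capitals. Irx4 (chr13:73397695-73397944, plus strand) carried the widest H3K27me3 peak of either cluster, Irx5 (chr8:94881445-94881694, plus strand) the only Flag-PCGF5 promoter peak, and Irx6 (chr8:95197938-95198187, plus strand) no H3K27me3 promoter peak in wild type ES. The window of Irx4 held 22 CpGs, that of Irx5 21 and that of Irx6 7. Those of the members not shown held 23 at Irx1, 21 at Irx2 and 13 at Irx3. In wild type ES the H3K27me3 coverage of the promoter window was highest at Irx3 (53%) and lowest at Irx6 (0%). A relation between CpGs and peaks was not tested.
Irx4: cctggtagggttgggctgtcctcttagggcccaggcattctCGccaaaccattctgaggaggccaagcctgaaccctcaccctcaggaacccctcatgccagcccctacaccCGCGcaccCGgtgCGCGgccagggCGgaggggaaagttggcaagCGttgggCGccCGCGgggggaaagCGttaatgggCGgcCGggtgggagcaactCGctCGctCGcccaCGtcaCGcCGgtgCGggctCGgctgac
Irx5: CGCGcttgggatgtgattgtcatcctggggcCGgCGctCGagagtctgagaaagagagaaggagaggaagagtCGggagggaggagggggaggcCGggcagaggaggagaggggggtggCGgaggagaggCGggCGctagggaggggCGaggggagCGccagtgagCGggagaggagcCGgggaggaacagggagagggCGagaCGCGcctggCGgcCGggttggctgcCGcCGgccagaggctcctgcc
Irx6: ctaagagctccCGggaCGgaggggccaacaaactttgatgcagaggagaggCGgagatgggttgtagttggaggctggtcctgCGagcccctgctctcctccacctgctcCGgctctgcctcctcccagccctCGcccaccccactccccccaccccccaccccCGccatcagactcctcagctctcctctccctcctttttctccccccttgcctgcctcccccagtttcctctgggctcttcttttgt

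Promoter peaks of both histone marks were present at 5 or 6 of the 6 members in each population. H2AK119ub1 peaks were centred in the promoter windows of 6 of 6 genes for the wild type ES library (6.69% of all protein-coding genes had one), 6 for depleted ES (5.96%), 5 for wild type NPC (4.98%) and 6 for depleted NPC (4.17%). H3K27me3 peaks were there at 5 genes in wild type ES (13.4% of all genes) and at 6 in depleted ES (12.9%), wild type NPC (15.7%) and depleted NPC (15.4%). Irx1, Irx2, Irx4 and Irx3 had a peak in all 8 histone lists, as did 1.42% of all genes. The gaps were Irx5 for H2AK119ub1 in wild type NPC and Irx6 for H3K27me3 in wild type ES. With a window of 1000 bp the H2AK119ub1 count was 3 in depleted ES and 3 in wild type NPC, and with the higher-scoring 50% of the list the H3K27me3 count was 3 in depleted ES.

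Flag-PCGF5 was different. In ES, where the list held 653 peaks, no Irx promoter had one (0.787% of all genes did). In NPC 1 of 6 did, Irx5 (13.7% of all genes). Both counts are near what the shares of all genes would give, so they do not set the family apart. The median share of the promoter window under peaks was 0% over all protein-coding genes in each of the 10 lists. Over the 6 Irx genes it was 20.4%, 16.8%, 8.75% and 16.5% for H2AK119ub1 in wild type ES, depleted ES, wild type NPC and depleted NPC. The H3K27me3 medians, in that order, were 21.2%, 20.6%, 36.4% and 37.2%. The H3K27me3 median was thus higher in NPC than in ES of either genotype, and the H2AK119ub1 median was not. Irx3 and Irx5 went the other way for H3K27me3 in wild type, with 1509 bp in NPC against 2653 bp in ES, and 1301 against 1421 bp. The whole H3K27me3 lists were also longer in NPC, 9.67 against 4.31 Mb in wild type and 8.18 against 3.84 Mb in depleted cells.

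**Figure D1:**
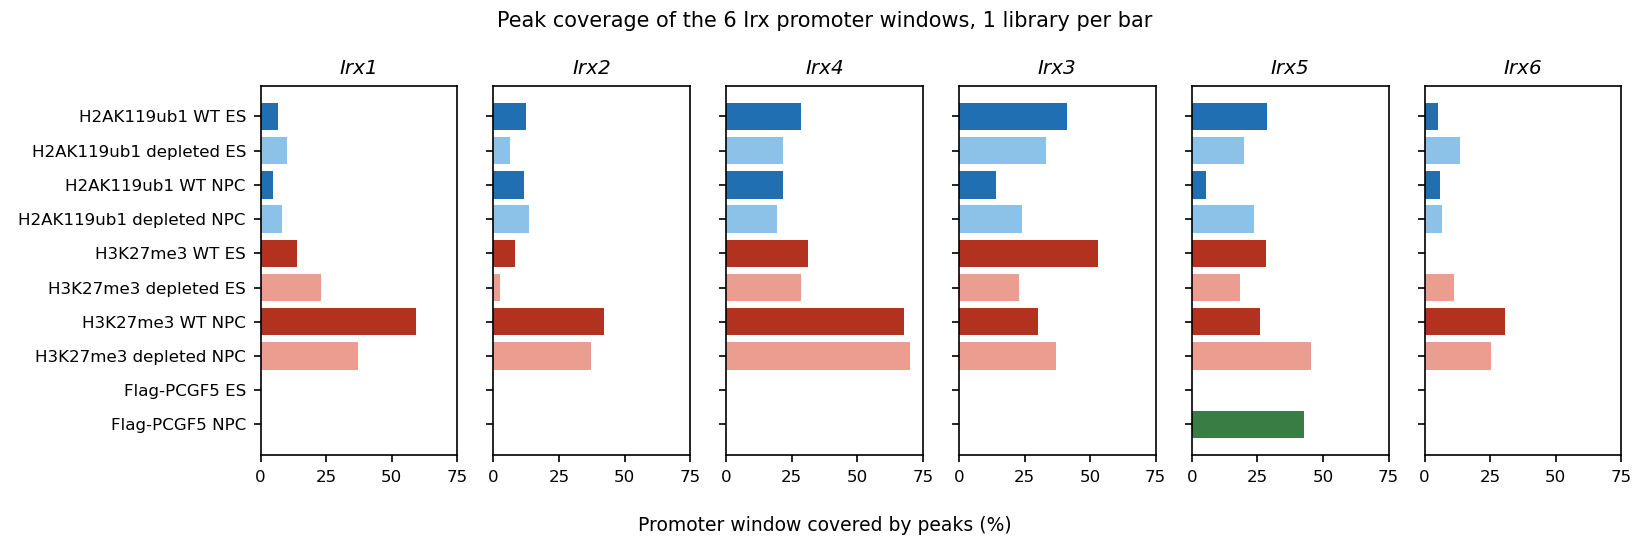
Share of each Irx promoter window (2500 bp either side of the protein-coding starts) covered by peaks, in percent, for the 10 lists (blue, H2AK119ub1; red, H3K27me3; green, Flag-PCGF5; dark, wild type; light, PCGF5-depleted; 1 library per bar, no error). The longest bars are H3K27me3 at Irx4 in NPC, 67.9% in wild type and 69.9% in PCGF5-depleted cells, and the only Flag-PCGF5 bar is Irx5 in NPC.

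The histone peaks that contained a first annotated start were of H3K27me3 only. The further starts annotated for Irx2 and Irx6 were not counted here. A start is a single base that only a single peak of a list can contain, so most of the peaks could not contain one. The count has no share over all genes beside it. Of 287 histone peaks over the clusters, 7 contained the first annotated start of an Irx gene, and all 7 were H3K27me3 peaks. They were found at Irx4 in all 4 H3K27me3 lists, at Irx3 in wild type ES, at Irx1 in PCGF5-depleted ES and at Irx5 in PCGF5-depleted NPC.  In wild type ES, 42.4% of the H2AK119ub1 peak bases over the clusters were exonic and 32.5% intronic, and 25.1% were outside any annotated gene. The shares for H3K27me3 in wild type ES were close to these, at 40.5%, 32.9% and 26.6%. In wild type NPC they were 29.6%, 37.5% and 32.9% for H2AK119ub1, and 27%, 29.1% and 43.8% for H3K27me3.

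Irx4, which is known for its expression in the ventricles of the heart, had the most extensive H3K27me3 of the family in NPC. In its promoter window H3K27me3 covered 1557 bp in wild type ES, 1429 bp in PCGF5-depleted ES, then 3395 bp in NPC of wild type and 3495 bp in NPC of depleted cells. Both NPC libraries were above both ES libraries. In wild type NPC one H3K27me3 peak of 6049 bp (chr13:73397051-73403099) ran from before the start into the gene, with 239 bp of coding sequence, 4449 bp of intron and 894 bp ahead of the gene. It was number 70 of 11371 peaks by width and its fold enrichment of 9.97 stood at percentile 97.8 of its list. A second peak of 2970 bp (chr13:73403257-73406226) followed, so that 94.4% of the 9124-bp gene lay under H3K27me3. In PCGF5-depleted NPC 74.5% of the gene was covered, in shorter pieces. Within 15 kb of the gene there were 12 peaks with a median width of 550 bp in the depleted cells and 5 with a median width of 1770 bp in wild type. The whole list of depleted NPC was also in more and narrower peaks, 14759 with a median width of 360 bp against 11371 with 453 bp. In ES the gene was 34.4% covered in wild type and 21.3% in depleted cells. H2AK119ub1 covered 1424, 1087, 1074 and 968 bp of the promoter window in wild type ES, depleted ES, wild type NPC and depleted NPC, with wild type above depleted at either stage.

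Irx1 and Irx2, expressed in developing lung and neural tissue, had more H3K27me3 in NPC than in ES. The Irx1 promoter window had 700 bp in wild type ES and 1161 bp in depleted ES, then 2964 bp in wild type NPC and 1867 bp in depleted NPC. Irx2 had 725 bp and 217 bp in ES of the 2 genotypes, and 3697 bp and 3263 bp in NPC. Both NPC values were above both ES values at either gene. The window of Irx2 is 8801 bp long because 5 transcript starts are annotated for it, 2 of them from transcripts marked as incomplete at the 5′ end. H3K27me3 at Irx2 was also found past the gene. A peak centred 10.4 kb after the start measured 1801 bp in wild type NPC (chr13:72775761-72777561) and 1758 bp in depleted NPC (chr13:72775824-72777581), with nearly the same borders. H2AK119ub1 covered 240 to 505 bp of the Irx1 window over the 4 populations and 564 to 1200 bp of the Irx2 window. At Irx2 the highest value was in depleted NPC, in a single peak whose fold of 7.06 was at percentile 92.4 of its list.

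Irx3, which shapes the ventral neural tube by mutual repression with Olig2, had the broadest H2AK119ub1 coverage in ES. H2AK119ub1 covered 2062 bp of its promoter window in wild type ES, 1665 bp in depleted ES, 704 bp in wild type NPC and 1198 bp in depleted NPC. Both ES libraries were above both NPC libraries. H3K27me3 covered 2653, 1146, 1509 and 1843 bp in the same order, so wild type ES was the highest of the 4. Irx3 and Irx5 were the members whose H3K27me3 window coverage in wild type cells was lower in NPC. Part of the marked chromatin before the gene lies in D230002A01Rik, an annotated long non-coding RNA on the opposite strand that overlaps the start of Irx3. A 1996-bp H3K27me3 peak of wild type NPC (chr8:94328968-94330963) lay within it, 1913 bp in exons. The counting of bases under peaks does not separate the 2 genes where they overlap.

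Irx5, which acts in retinal bipolar cells and in the heart, had the H2AK119ub1 promoter peak that ranked highest in its own list, at percentile 98.3 by fold in wild type ES. H2AK119ub1 covered 1434 bp of the promoter window in wild type ES, 1003 bp in depleted ES, 277 bp in wild type NPC and 1185 bp in depleted NPC. Wild type NPC was the lowest of the 4, and its 277 bp belonged to a peak centred outside the window. H3K27me3 covered 1421, 914, 1301 and 2276 bp in the same order, with depleted NPC as the highest. In this window the depleted library was lower than wild type in ES and higher in NPC for either mark, while within 15 kb of the gene it was higher in ES as well (3061 against 3013 bp of H2AK119ub1 and 2332 against 2074 bp of H3K27me3).

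The only Flag-PCGF5 peak in an Irx promoter window was at Irx5 in NPC. It measured 2143 bp (chr8:94879965-94882107), was number 224 of 12013 by width and had a fold of 2.23, at percentile 51 of its list. It contained the start of Irx5 and reached back to the start of 4933436C20Rik, a gene annotated as protein-coding on the opposite strand whose last base lies at 94880019 of chromosome 8. Of its length 1675 bp were outside both genes. The Irx5 upstream sequence printed above lies inside it. In ES the same interval had no Flag-PCGF5 peak. Over the clusters Flag-PCGF5 had 4 peaks in NPC, of which 1 was overlapped by H3K27me3 of wild type NPC, the Irx5 peak, and 1 by H2AK119ub1 of wild type NPC. Among all 12013 Flag-PCGF5 peaks of NPC, 6.1% were overlapped by H3K27me3 and 1.58% by H2AK119ub1. The tagged and the histone libraries were prepared differently, from sonicated and from nuclease-digested chromatin.

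Irx6, also expressed in retinal bipolar cells, had the least H3K27me3 within 15 kb of the gene in wild type ES (754 bp), wild type NPC (1957 bp) and depleted NPC (2117 bp), while in depleted ES Irx2 had less (685 against 999 bp). H2AK119ub1 covered 293 bp of its window in wild type ES, 743 bp in depleted ES, 321 bp in wild type NPC and 369 bp in depleted NPC. H3K27me3 covered 0, 613, 1702 and 1412 bp in the same order. The 3 promoter peaks of depleted ES ranked low in their list, with the highest at percentile 14.9 by fold and a highest −log10 q-value of 1.89. In wild type ES H3K27me3 peaks were further into the gene, and 11.3% of it was covered. Both NPC libraries were above both ES libraries.

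**Figure D2:**
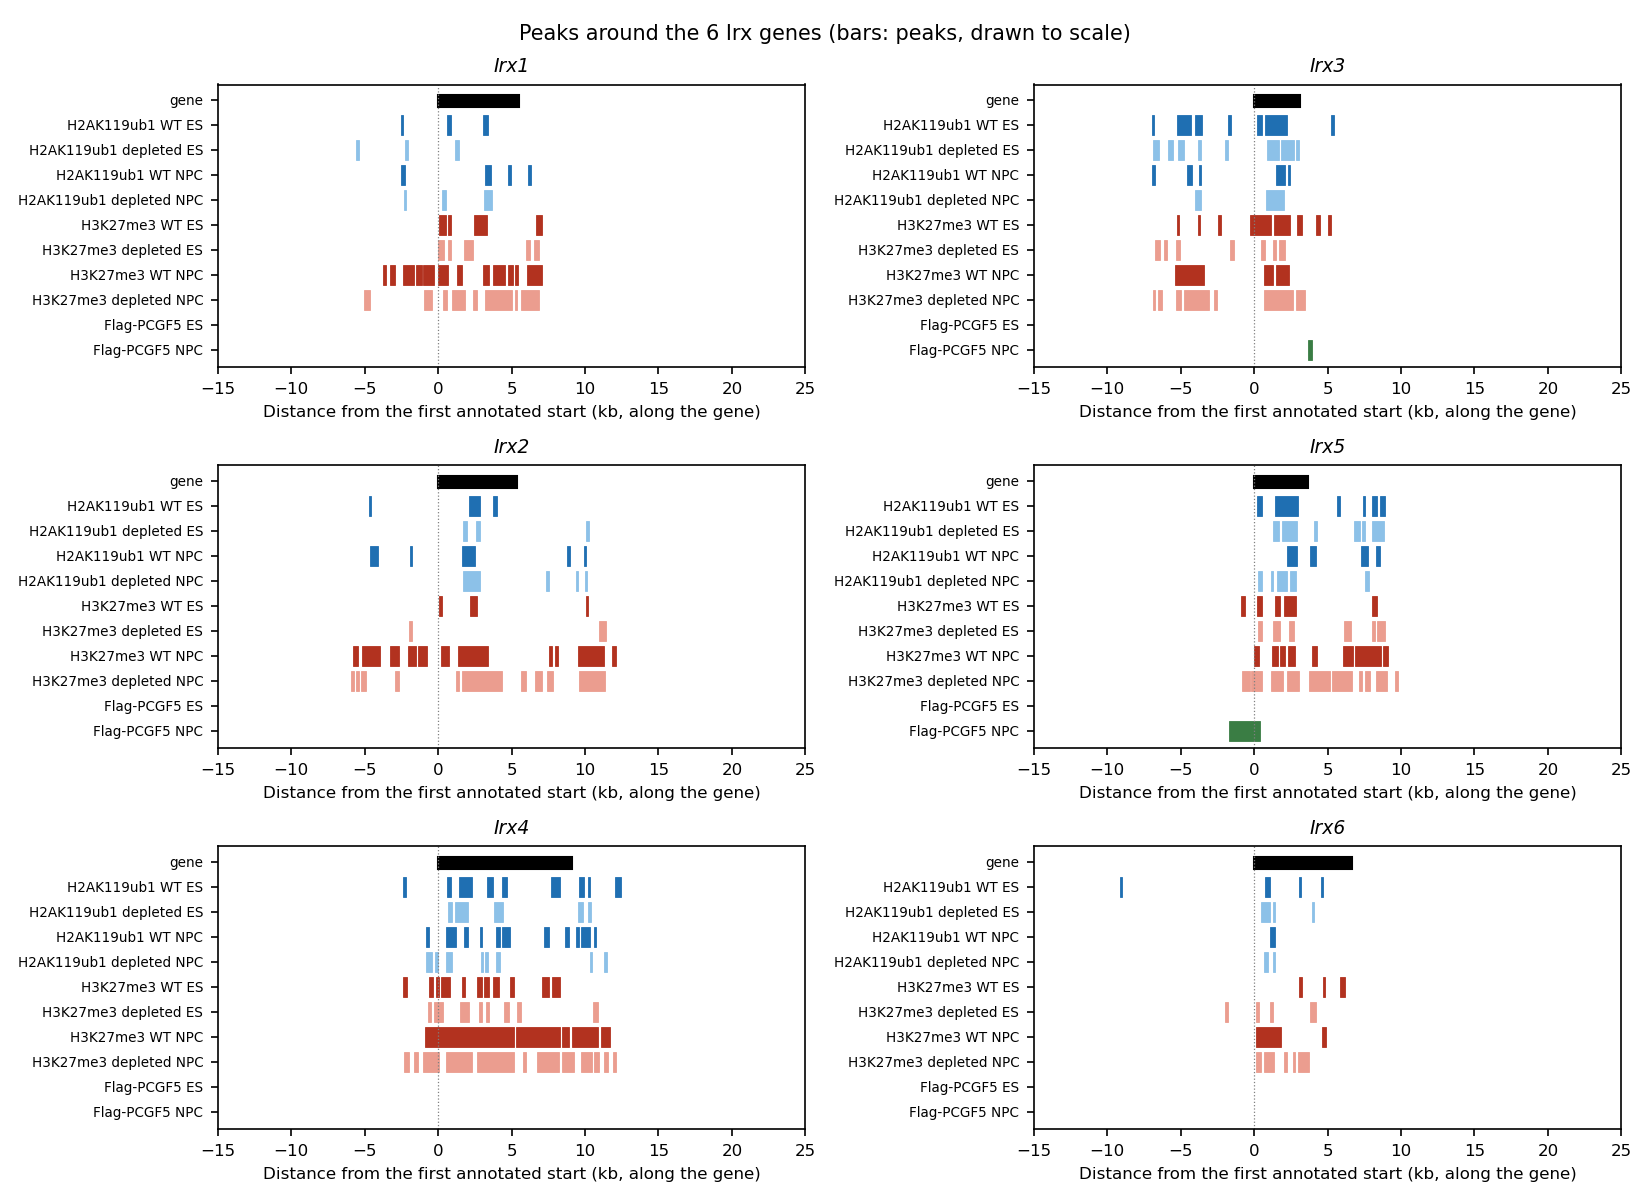
Peaks of the 10 lists around each Irx gene, with the distance from the first annotated start in kb along the gene (black, the gene; bars, peaks to scale; colours as in the plot of window coverage). The marks sit in islands at the genes, the 6049-bp H3K27me3 peak of wild type NPC runs across most of Irx4, and Flag-PCGF5 appears over the start of Irx5.

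Within the clusters the histone marks formed islands at the genes, with long stretches almost without peaks between them. The shares below use a 15-kb width that was chosen after these peaks had been seen. No matching shares for other genes are given. The 3 genes with 15 kb either side make up 6.1% of the Irx1-Irx2-Irx4 span (counting only bases inside it) and 8.32% of the Irx3-Irx5-Irx6 span. They held 82.7% to 100% of the H2AK119ub1 and 86.5% to 100% of the H3K27me3 bases in the Irx1-Irx2-Irx4 span over the 4 populations. In the Irx3-Irx5-Irx6 span they held 87.2% to 100% of the H2AK119ub1 and 80.1% to 89.3% of the H3K27me3 bases. Per Mb, H2AK119ub1 covered 3.6 to 7.38 times as much of the Irx1-Irx2-Irx4 span as of the genome, and 4.38 to 10.7 times as much of the Irx3-Irx5-Irx6 span. H3K27me3 covered 2.29 to 4.73 times and 3.8 to 5.62 times as much. Flag-PCGF5 of NPC covered 0.0546 times as much of the Irx1-Irx2-Irx4 span as of the genome and 1.23 times as much of the Irx3-Irx5-Irx6 span.

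**Figure D3:**
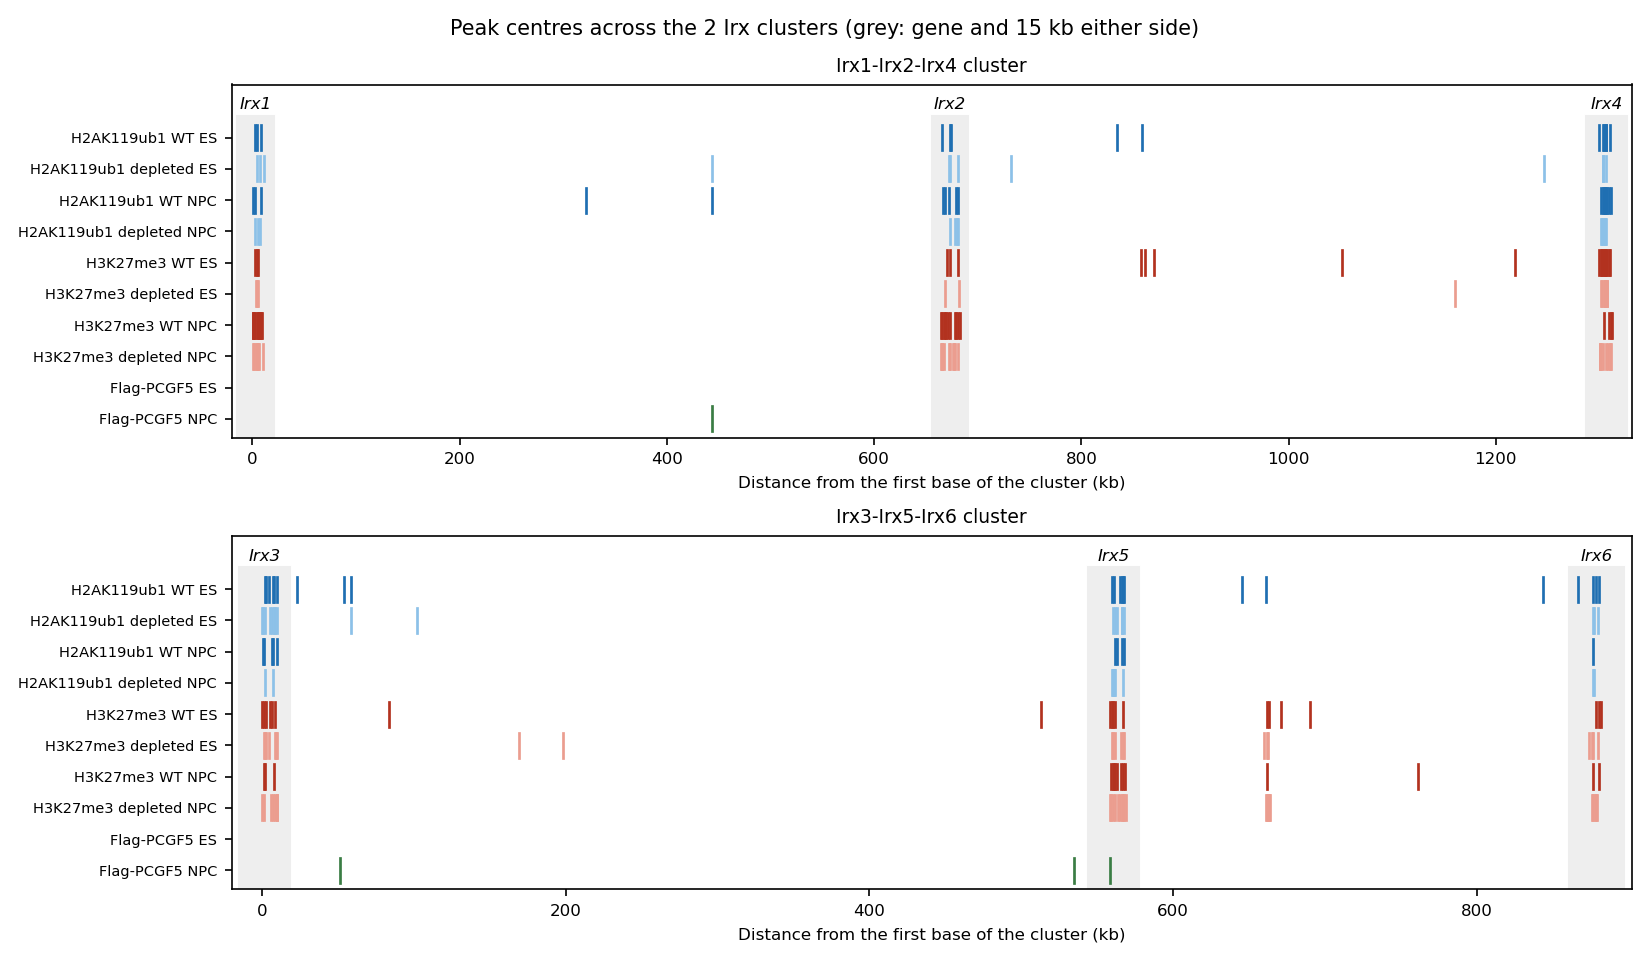
Centres of all peaks across the Irx1-Irx2-Irx4 cluster (top) and the Irx3-Irx5-Irx6 cluster (bottom), against the distance from the cluster's first base in kb (1 row per list; grey, gene and 15 kb either side). Peaks gather at the genes, and between Irx5 and Irx6 H3K27me3 of all 4 populations meets at a point 103 kb after the start of Irx5. The width of the grey areas was chosen after the peaks had been seen.

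Away from the genes, peaks that lay within 5 kb of each other in any list were joined into 10 sites in the Irx1-Irx2-Irx4 span and 14 in the Irx3-Irx5-Irx6 span. Of these, 8 and 12 were seen in 1 list only. A single site was in more than 3 lists. It lay 103 kb after the start of Irx5 (chr8:94982533-94986266), outside any annotated gene, and had H3K27me3 in all 4 populations. H3K27me3 covered 632 bp there in wild type ES, 804 bp in depleted ES, 2252 bp in wild type NPC and 1689 bp in depleted NPC. Both NPC libraries were above both ES libraries. The coverage of wild type NPC was 1 peak (chr8:94983553-94985804) at percentile 93.9 of its list by fold, while that of depleted NPC was in 5 peaks at percentiles 43.3 to 93.5 of theirs. H2AK119ub1 had 1 peak of 144 bp there, in wild type ES. The 300 bases around the summit of the wild type NPC peak are shown because this site, unlike the others away from the genes, recurred in every H3K27me3 list (chr8:94984095-94984394, plus strand, mm9, CpGs in capitals). They held 32 CpGs and 68.3% GC, and the whole peak had an observed to expected CpG ratio of 0.684.
Site past Irx5: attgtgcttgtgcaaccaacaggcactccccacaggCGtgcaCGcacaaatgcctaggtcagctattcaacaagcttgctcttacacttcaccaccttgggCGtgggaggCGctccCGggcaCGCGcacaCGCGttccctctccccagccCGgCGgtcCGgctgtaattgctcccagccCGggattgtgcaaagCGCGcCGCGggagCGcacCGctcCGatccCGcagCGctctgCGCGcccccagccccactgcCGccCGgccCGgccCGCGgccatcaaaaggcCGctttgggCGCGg

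Another site, 227 kb before Irx2, was in 3 lists and outside any gene. It had Flag-PCGF5 in NPC over 195 bp (chr13:72539183-72539377, fold 2, percentile 23.1 of its list), H2AK119ub1 in depleted ES over 339 bp and H2AK119ub1 in wild type NPC over 134 bp. Its sequence is shown because it was the only place in the Irx1-Irx2-Irx4 span with Flag-PCGF5. The 195 bases (plus strand, mm9) contained 0 CpGs, and 91.8% of them were A or G, against 21 CpGs and 72% A or G in the Irx5 sequence above.
Site before Irx2: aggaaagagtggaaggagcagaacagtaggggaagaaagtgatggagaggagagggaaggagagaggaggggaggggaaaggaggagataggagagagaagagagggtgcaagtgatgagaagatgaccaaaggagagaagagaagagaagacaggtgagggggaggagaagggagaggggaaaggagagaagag

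From ES to NPC the covered bp of H3K27me3 were higher over both clusters. Those of H2AK119ub1 were lower over Irx3-Irx5-Irx6 and slightly higher over Irx1-Irx2-Irx4. H3K27me3 over the Irx1-Irx2-Irx4 span was 7259 bp in wild type ES and 23227 bp in wild type NPC, and 4519 bp and 19838 bp in depleted cells. Over the Irx3-Irx5-Irx6 span it was 7364 bp and 12670 bp in wild type, and 6559 bp and 15847 bp in depleted cells. NPC was above ES in all 4 of these pairs. The whole H3K27me3 lists were longer in NPC too, 9.67 against 4.31 Mb in wild type and 8.18 against 3.84 Mb in depleted cells. Relative to the genome's coverage, the Irx1-Irx2-Irx4 span went from 3.28 in ES to 4.69 in NPC of wild type and from 2.29 to 4.73 in depleted cells. The Irx3-Irx5-Irx6 span went from 4.95 to 3.8 in wild type and from 4.95 to 5.62 in depleted cells, so in wild type it gained less than the genome as a whole. H2AK119ub1 over the Irx3-Irx5-Irx6 span was 8486 bp in wild type ES and 3523 bp in wild type NPC, and 7713 bp and 3802 bp in depleted cells, so NPC was below ES in either genotype. Over the Irx1-Irx2-Irx4 span H2AK119ub1 was 5133 bp in ES and 5736 bp in NPC of wild type, and 3865 bp and 4249 bp in depleted cells. The increase of 603 bp in wild type turned into a decrease, of -671 bp, when only the higher-scoring 50% of each list was used. In depleted cells the increase of 384 bp was kept under all 6 alternatives, at 234 to 3613 bp. The H2AK119ub1 lists went from 2.49 to 2.33 Mb in wild type and from 2.09 to 1.12 Mb in depleted cells. Relative to the genome's coverage, wild type H2AK119ub1 went from 9.88 to 4.38 over Irx3-Irx5-Irx6 and from 4.02 to 4.8 over Irx1-Irx2-Irx4. Depleted cells went from 10.7 to 9.81 and from 3.6 to 7.38. On that scale depleted cells fell little at Irx3-Irx5-Irx6 and rose more than wild type at Irx1-Irx2-Irx4.

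By promoter window, H3K27me3 coverage was higher in NPC than in ES at 4 of 6 members in wild type (74% of all genes covered in either list) and at 6 of 6 in depleted cells (72.7%). H2AK119ub1 was higher in NPC at 1 of 6 in wild type, Irx6 (42.6% of all genes), and at 2 of 6 in depleted cells, Irx2 and Irx5 (35.4%). Over the gene with 15 kb either side, a width chosen after the peaks had been seen, H3K27me3 was higher in NPC at 5 of 6 in wild type (65.6% of all genes) and 6 of 6 in depleted cells (66.3%). H2AK119ub1 was higher in NPC at Irx1 and Irx2 in wild type (30.9% of all genes) and at the same 2 in depleted cells (27.2%). The counts for H3K27me3 rest on a background in which most genes also gained coverage.

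A larger share of the H2AK119ub1 peaks was overlapped by H3K27me3 in NPC, and the reverse share was not larger. Of the H2AK119ub1 peaks over the clusters, 17 of 36 in wild type ES and 11 of 31 in depleted ES were overlapped by H3K27me3 of the same cells by at least 1 bp. In NPC the counts were 24 of 28 in wild type and 20 of 22 in depleted cells. Over all H2AK119ub1 peaks the ES libraries gave 38.8% and 27.6%, and the NPC libraries 81.3% and 74.5%, so the rise over the clusters went with one in the whole lists. In the other direction, H2AK119ub1 overlapped 45.2% of the H3K27me3 peaks over the clusters in wild type ES and 41.5% in wild type NPC, beside 27.4% and 25.5% over the whole lists. In depleted cells the shares were 31.4% in ES and 28.8% in NPC, beside 18.4% and 15.2%.

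In PCGF5-depleted NPC the covered bp of H3K27me3 differed from wild type in opposite directions at the 2 clusters. H3K27me3 over the Irx1-Irx2-Irx4 span was 19838 bp in depleted against 23227 bp in wild type NPC, a difference of -3389 bp. Over the Irx3-Irx5-Irx6 span it was 15847 bp against 12670 bp, a difference of 3177 bp. These directions were kept under all 6 alternative ways of counting, with -4430 to -2148 bp for the Irx1-Irx2-Irx4 span and 1890 to 9409 bp for the Irx3-Irx5-Irx6 span. The depleted list was shorter as a whole, 8.18 against 9.67 Mb. Per Mb and relative to the genome's coverage by the same list, the Irx1-Irx2-Irx4 span stood at 4.73 in depleted and 4.69 in wild type NPC, and the Irx3-Irx5-Irx6 span at 5.62 and 3.8. On that scale the lower value at Irx1-Irx2-Irx4 was not seen, and the higher value at Irx3-Irx5-Irx6 was. In covered bp, not scaled by list length, the genes divided in the same way. The 15-kb width used here was chosen after the peaks had been seen. Within 15 kb of the gene, H3K27me3 was lower in depleted NPC at Irx1 (5754 against 6337 bp), Irx2 (6925 against 8402 bp) and Irx4 (10137 against 11902 bp). It was higher at Irx3 (5339 against 3505 bp), Irx5 (7056 against 4681 bp) and Irx6 (2117 against 1957 bp). So 3 of 6 members were higher in depleted NPC, beside 40.7% of all genes covered in either list.

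For H2AK119ub1 in NPC 3 of 6 members were higher in depleted cells, a share near that of all genes (43.5%). Within 15 kb it was lower in depleted NPC at Irx1 (949 against 1073 bp), Irx2 (1722 against 1874 bp) and Irx4 (1969 against 3629 bp). It was higher at Irx3 (1603 against 1379 bp), Irx5 (1830 against 1823 bp) and Irx6 (369 against 321 bp), where the differences at Irx5 and Irx6 were 7 and 48 bp. Over the whole spans it was 4249 bp against 5736 bp at Irx1-Irx2-Irx4 and 3802 bp against 3523 bp at Irx3-Irx5-Irx6, and both directions depended on how peaks were counted. The depleted list covered 1.12 Mb of the genome against 2.33 Mb. Relative to that coverage, depleted NPC was above wild type at both clusters, at 7.38 against 4.8 for Irx1-Irx2-Irx4 and 9.81 against 4.38 for Irx3-Irx5-Irx6. In the narrower promoter windows 5 of 6 members had more H2AK119ub1 in depleted NPC, all but Irx4 (36.4% of all genes). For H3K27me3 it was 3 of 6, namely Irx4, Irx3 and Irx5 (36.4% of all genes). These members were not divided by cluster.

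In ES the depleted libraries had fewer covered bp over both clusters. H2AK119ub1 was 3865 bp against 5133 bp in wild type over the Irx1-Irx2-Irx4 span and 7713 bp against 8486 bp over the Irx3-Irx5-Irx6 span. H3K27me3 was 4519 bp against 7259 bp and 6559 bp against 7364 bp. The lists of depleted ES were also shorter as a whole, 2.09 against 2.49 Mb for H2AK119ub1 and 3.84 against 4.31 Mb for H3K27me3. The part of this in the difference was not tested. Relative to the genome's coverage by the same list, H2AK119ub1 stood at 3.6 in depleted and 4.02 in wild type ES over Irx1-Irx2-Irx4. Over Irx3-Irx5-Irx6 it stood at 10.7 and 9.88. H3K27me3 stood at 2.29 and 3.28 over Irx1-Irx2-Irx4, and at 4.95 in either genotype over Irx3-Irx5-Irx6. On that scale depleted ES was lower at Irx1-Irx2-Irx4 only. In covered bp, both directions at Irx3-Irx5-Irx6 depended on how peaks were counted. H2AK119ub1 became 556 bp higher in depleted ES when peaks within 1000 bp were merged, and H3K27me3 441 bp higher with equal numbers of top-scoring peaks. Both directions at Irx1-Irx2-Irx4 were kept under all 6 alternatives. Gene by gene, H2AK119ub1 within 15 kb was higher in depleted ES at Irx1, Irx5 and Irx6 (3 of 6, with 43.5% of all genes) and H3K27me3 at Irx5 and Irx6 (2 of 6, with 47.2% of all genes). In the promoter windows it was Irx1 and Irx6 for either mark (2 of 6), against 44% of all genes for H2AK119ub1 and 45.4% for H3K27me3. The deepest H3K27me3 difference was at Irx3, 1990 bp in depleted and 3835 bp in wild type ES.

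**Figure D4:**
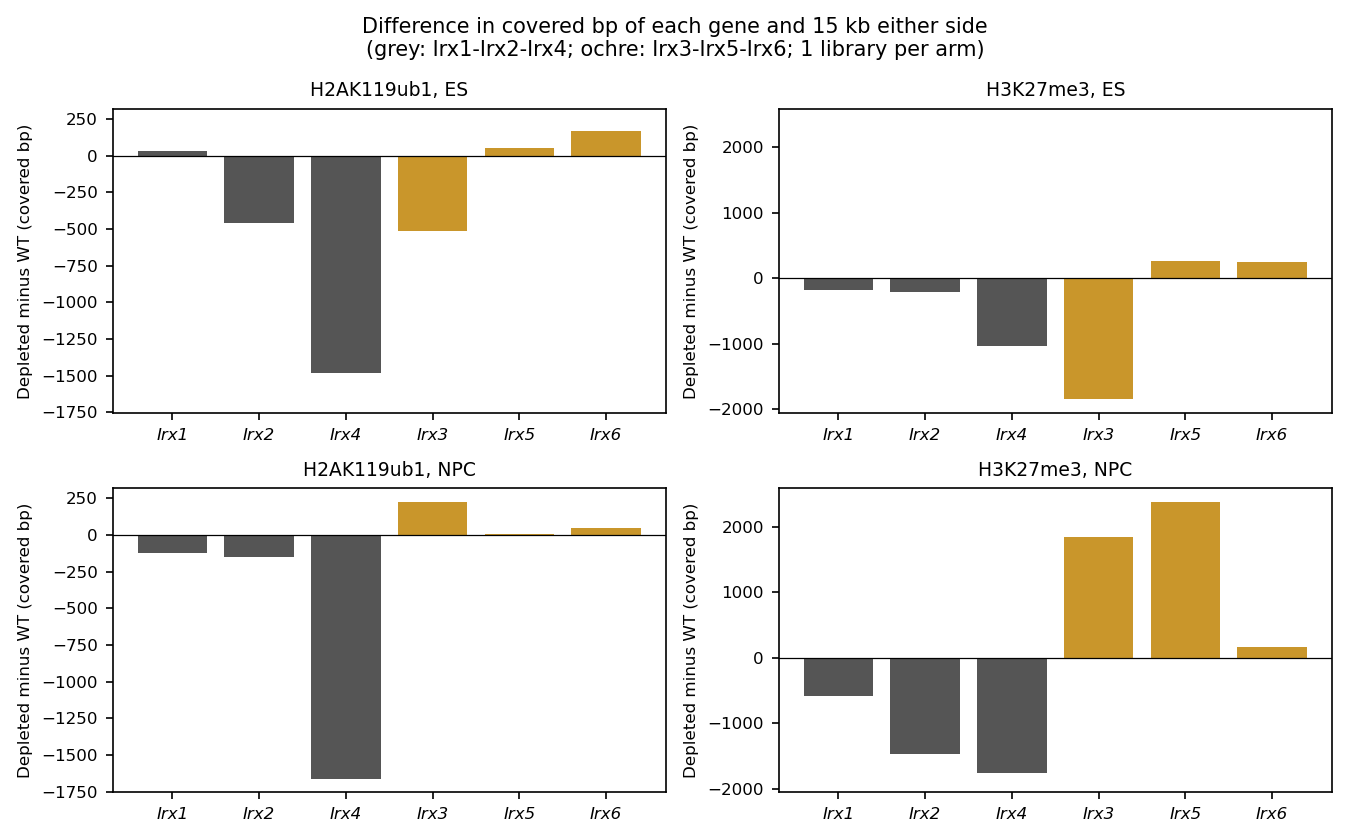
Covered bp in PCGF5-depleted minus wild type cells for each Irx gene with 15 kb either side, by mark and stage (grey, Irx1-Irx2-Irx4 cluster; ochre, Irx3-Irx5-Irx6 cluster; 1 library per arm, so no error). In NPC every grey bar is below 0 and every ochre bar above it for either mark, with H3K27me3 differences from -1765 bp at Irx4 to 2375 bp at Irx5. The H2AK119ub1 bars of NPC at Irx5 and Irx6 are only 7 and 48 bp. The bars are not scaled by list length, and the 15-kb width was chosen after the peaks had been seen.

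Peaks of the genotypes matched in position for some of the islands. Of the wild type peaks over the clusters, 14 of 36 H2AK119ub1 peaks in ES, 13 of 28 in NPC, 17 of 42 H3K27me3 peaks in ES and 30 of 41 in NPC were overlapped by a peak of the depleted cells. Genome-wide the shares were 25.2%, 26%, 35.1% and 58.5%. In the other direction 15 of 31, 13 of 22, 17 of 35 and 36 of 52 peaks of depleted cells were overlapped by wild type, beside 30.6%, 42%, 41.6% and 59.5% of the whole lists.

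Of the other TALE homeobox genes at most 5 of 12 had a promoter peak in a histone list. Among these genes of the Meis, Pbx, Pknox, Tgif and Mkx families, whose proteins are partners of Hox factors or repressors, 2, 4, 1 and 2 had an H2AK119ub1 promoter peak in wild type ES, depleted ES, wild type NPC and depleted NPC, beside 6.69%, 5.96%, 4.98% and 4.17% of all genes. For H3K27me3 there were 3, 3, 2 and 5, beside 13.4%, 12.9%, 15.7% and 15.4% of all genes. The 5 with H3K27me3 in depleted NPC were Meis1, Meis2, Meis3, Pknox2 and Mkx. Their median window coverage was 0% in each of the 10 lists. Flag-PCGF5 had a promoter peak in NPC at 5 of the 12, namely Meis1, Meis2, Meis3, Pbx2 and Tgif1, beside 13.7% of all genes.

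Nearly all neural patterning genes had promoter peaks of both marks. Of 12 genes, among them Six3, Olig2, Nkx2-2, Shh and En1, 9, 11, 12 and 11 had an H2AK119ub1 promoter peak in the same order of populations, and 11, 11, 12 and 11 an H3K27me3 peak. Over all genes the shares were 4.17% to 6.69% for H2AK119ub1 and 12.9% to 15.7% for H3K27me3. Otx2, a forebrain and midbrain regulator, had H3K27me3 and H2AK119ub1 promoter peaks in wild type NPC only among the 4 populations. The median H3K27me3 window coverage of these 12 genes was 78.1% in wild type NPC and 72.8% in depleted NPC, beside 36.4% and 37.2% for the Irx genes. Flag-PCGF5 in NPC had a promoter peak at 1 of the 12, Pax6, beside 13.7% of all genes.

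Genes around the clusters had few histone peaks. Fto and Rpgrip1l, the nearest genes before Irx3, and Ndufs6 and Mrpl36, the nearest after Irx4, had no histone peak in their promoter windows in any list, while Ndufs6 and Mrpl36 each had a Flag-PCGF5 peak in NPC. Gm3272 and 8030423J24Rik, on the other sides, had no promoter peak in any list, and neither did Rpl9-ps4 between Irx1 and Irx2. Gm17310 had a Flag-PCGF5 peak in NPC. Adamts16, 1110 kb before Irx1, had a promoter peak in 4 lists, namely H2AK119ub1 and H3K27me3 of wild type ES, H3K27me3 of depleted NPC and Flag-PCGF5 of NPC. Inside the Irx3-Irx5-Irx6 span, 4933436C20Rik shares its promoter region with Irx5. Its window had 326 bp of H3K27me3 in wild type NPC, 1226 bp in depleted NPC and 2143 bp of Flag-PCGF5 in NPC.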

How the data were processed

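The 10 deposited peak lists were used, 1 library each, and the 6 input libraries were not used here. According to the methods and the labels, reads of the histone libraries (nuclease-digested, lightly fixed chromatin) and of the Flag libraries (crosslinked, sonicated) were aligned to mm9 with Bowtie2, and the authors called peaks per library with MACS2 2.1.0. By the methods, Flag-PCGF5 peaks were kept at a stricter cutoff than histone peaks. The lowest −log10 q-value was 2 in both Flag-PCGF5 lists and 0.94 to 1.64 in the histone lists. Flag-PCGF5 and histone counts therefore rest on unlike cutoffs. The spike-in that scaled signal densities does not enter the lists. The deposited columns give a score, a fold enrichment (a ratio over background), and −log10 p- and q-values, as the authors' peak caller wrote them. They were used to rank or filter peaks within their own list.

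Peaks were placed on GENCODE M1 genes of NCBIM37 (mm9), counted from 1, with Python 3.11.15, and 60 coverage values were checked with bedtools 2.31.1, of which 0 differed. The counting of peaks and bases was checked on simulated peaks of known position. The genes named are the 6 members, genes in or next to the clusters, and members of fixed lists where 5 or fewer had a peak or, above that, examples. Of 3 neural markers on the list, 2 were analysed here. The members and lists were chosen with earlier results of these data known. The alternatives tried were window width, any-base overlap, a −log10 q-value minimum of 2, the higher-scoring 50%, equal list lengths, merging within 1000 bp and wider spans. Alternatives that left out incomplete transcripts, or kept to 15 kb around the genes, were added after seeing the data.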

Additional observations from a re-analysis of the deposited data

Results flagged for a closer look

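Some differences had opposite directions in the compared backgrounds. Each rests on 1 library per arm, and the difference between the backgrounds was not tested. Over the Irx3-Irx5-Irx6 span, PCGF5-depleted minus wild type was -773 bp of H2AK119ub1 in ES and 279 bp in NPC, and -805 bp of H3K27me3 in ES and 3177 bp in NPC. Of these, the -773 bp became 556 bp under 1 of 6 alternatives, the 279 bp became -165, -571 and -415 bp under 3, and the -805 bp became 441 bp under 1, so only the 3177 bp kept its sign in all 6. Over the Irx1-Irx2-Irx4 span the directions did not differ.

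In the promoter windows, depleted minus wild type H3K27me3 was 461 bp in ES and -1097 bp in NPC at Irx1, and 613 bp and -290 bp at Irx6. It went the other way at Irx4 (-128 bp in ES and 100 bp in NPC), Irx3 (-1507 bp and 334 bp) and Irx5 (-507 bp and 975 bp). H2AK119ub1 was lower in depleted ES and higher in depleted NPC at Irx2 (-520 bp and 174 bp), Irx3 (-397 bp and 494 bp) and Irx5 (-431 bp and 908 bp).

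The step from ES to NPC also differed in direction between genotypes at some windows. NPC minus ES in H2AK119ub1 was -58 bp in wild type and 636 bp in depleted cells at Irx2, -1157 bp and 182 bp at Irx5, and 28 bp and -374 bp at Irx6. For H3K27me3 it was -1144 bp and 697 bp at Irx3, and -120 bp and 1362 bp at Irx5. In these windows Irx5 was the member at which every contrast of either mark turned.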

How the results depend on the processing

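A value was taken as kept when it had the same sign and was within 1.5 times the reported one. Of 16 differences over the spans, 11 kept their direction under all 6 alternatives, and of 96 values 88 kept it, 55 of them within 1.5 times. H3K27me3 kept its direction in every contrast except depleted minus wild type ES over the Irx3-Irx5-Irx6 span. The causes were not tested. Depth is unknown, 1 library stands for each group, and the number of pieces into which a broad mark is divided depends on the peak caller.

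The 8 reversals were as follows. Over Irx3-Irx5-Irx6, depleted minus wild type H2AK119ub1 in ES became 556 bp with peaks within 1000 bp merged, and in NPC it became -165 bp at a −log10 q-value of at least 2, -571 bp with the higher-scoring 50% and -415 bp merged. H3K27me3 in ES became 441 bp with equal numbers of top-scoring peaks. Over Irx1-Irx2-Irx4, H2AK119ub1 in NPC became 24 bp with the higher-scoring 50% and 195 bp with equal numbers. NPC minus ES in wild type became -671 bp with the higher-scoring 50%.

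Depleted minus wild type values that moved without reversing were, over Irx1-Irx2-Irx4, for H2AK119ub1 in ES -2143 bp (q-value minimum), -3390 bp (higher-scoring 50%), -2294 bp (merged) and -1907 bp (within 15 kb), and in NPC -3196 bp (merged) and -2278 bp (span widened by 50 kb). For H3K27me3 they were -511 bp (higher-scoring 50%) and -1417 bp (within 15 kb) in ES and -2148 bp (higher-scoring 50%) in NPC. Over Irx3-Irx5-Irx6 they were for H2AK119ub1 in ES -1680 bp (higher-scoring 50%), -25 bp (equal numbers) and -297 bp (within 15 kb). For H3K27me3 they were -2196 bp (q-value minimum), -3605 bp (higher-scoring 50%), -1611 bp (span widened) and -1342 bp (within 15 kb) in ES, and 1890 bp (higher-scoring 50%) and 9409 bp (merged) in NPC.

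NPC minus ES values that moved were, over Irx1-Irx2-Irx4, for H2AK119ub1 in wild type 283 bp (q-value minimum), 1282 bp (equal numbers), 2365 bp (merged) and 933 bp (within 15 kb), and in depleted cells 1350 bp (q-value minimum), 2743 bp (higher-scoring 50%), 3613 bp (equal numbers), 1463 bp (merged), 234 bp (span widened) and 904 bp (within 15 kb). Over Irx3-Irx5-Irx6 they were for H2AK119ub1 in depleted cells -2473 bp (higher-scoring 50%) and -1487 bp (equal numbers), and for H3K27me3 2654 bp (merged) and 3480 bp (within 15 kb) in wild type and 5772 bp (equal numbers) in depleted cells.

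The count of Irx genes with a promoter peak became 3 for H2AK119ub1 in depleted ES and 3 in wild type NPC with a 1000-bp window, and 3 for H3K27me3 in depleted ES with the higher-scoring 50%. Merging left 10, 6 and 5 H2AK119ub1 peaks over Irx3-Irx5-Irx6 in depleted ES, wild type NPC and depleted NPC, and 8 over Irx1-Irx2-Irx4 in depleted NPC. It left 13, 6, 6 and 8 H3K27me3 peaks over Irx1-Irx2-Irx4 in wild type ES, depleted ES, wild type NPC and depleted NPC, and 13, 13, 9 and 5 over Irx3-Irx5-Irx6. With the q-value minimum, 7 H2AK119ub1 peaks of depleted ES were left over Irx1-Irx2-Irx4 and 13 H3K27me3 peaks of depleted ES over Irx3-Irx5-Irx6. With the span widened, Flag-PCGF5 in NPC had 2 over Irx1-Irx2-Irx4. Of the single promoter values, 30 of 60 moved by over 1.5 times with the 1000-bp window and 1 of 60 without incomplete transcripts. Of 26 overlap counts, 11 moved when 50% of the peak had to be overlapped.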
